A study of Rattus norvegicus with 9 samples.

Results

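The iron-regulating genes of the liver were followed in bulk RNA-seq data from 9 rat livers. The set held 10 genes, the hepcidin gene Hamp, the genes that set its level (Bmp6, Hfe, Tfr2), the transferrin receptor Tfrc, the iron transporters Slc39a14, Slc11a2 and Slc40a1, and the ferritin chains Fth1 and Ftl1. They were chosen by symbol, so each is 1 of the 32883 rows of the deposited tables, and 9 of the 10 had enough reads to be tested among 14089 genes. Slc40a1 was the row left out of the tests.

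The study asked what an extracorporeal support system does in acute-on-chronic liver failure (ACLF). The 3 groups held 3 livers each, all from male Sprague-Dawley rats obtained at 8 to 11 weeks of age. Their age when livers were taken is not given. Livers labelled normal came from normal rats. Both ACLF groups had their common bile duct ligated for 21 days, which gives a biliary cirrhosis, received lipopolysaccharide (LPS) at 0.25 mg/kg and were connected to a whole-blood circuit for 2 h. In the empty group the circuit carried neither cells nor the granulocyte and monocyte adsorption column, and in the UTOpiA group it carried that column and alginate-encapsulated hepatocyte-like cells made from human induced pluripotent stem cells. ACLF livers were taken 24 h after LPS from rats still alive, so the groups describe survivors at 1 time point, and the livers are labelled as biological replicates.

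Hepcidin is a small peptide hormone that hepatocytes secrete, and it removes the iron exporter ferroportin (Slc40a1) from cell surfaces so that less iron enters plasma. Its gene is switched on through the BMP and SMAD pathway, in which Bmp6 from sinusoidal endothelial cells reports iron stores and Hfe and Tfr2 report iron-loaded transferrin, and through interleukin-6 and STAT3 in inflammation. Tfrc and ferritin are set after transcription by iron regulatory proteins, which stabilise Tfrc mRNA and block ferritin translation when a cell is short of iron.

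Hamp is the output of both inputs, so its promoter is shown with the letters searched for each of them, the BMP response element GGCGCC and the STAT site TTCNNNGAA. Both motifs are their own reverse complement, so 1 search covers both strands. The window covers bases 180 to 61 before the start of the gene, taken from RefSeq (rat build GRCr8), with motif matches in capitals. For Hamp it lies at chr1:95300332-95300451 on the minus strand. Tfrc, at chr11:81690379-81690498 on the minus strand, is shown because it was the only other member whose promoter held either motif.

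Hamp: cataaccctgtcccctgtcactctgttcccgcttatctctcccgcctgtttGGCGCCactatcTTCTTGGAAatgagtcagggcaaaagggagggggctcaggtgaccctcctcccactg

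Tfrc: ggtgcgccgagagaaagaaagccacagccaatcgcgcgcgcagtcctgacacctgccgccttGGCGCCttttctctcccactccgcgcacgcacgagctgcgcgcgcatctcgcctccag

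In Hamp the GGCGCC match began 129 bases before the start and the TTCNNNGAA match, TTCTTGGAA, began 117 bases before it, so the matches lay side by side without overlap. The single Tfrc match began 118 bases before its start. Of the 10 members, 6 had a promoter in the RefSeq table, and Hfe, Slc39a14, Fth1 and Ftl1 had none. Among 33469 rat promoters of 300 bases, GGCGCC was present in 11% and TTCNNNGAA in 8.87%, and 0.547% held both. A match is a description of the letters and not evidence that a factor binds there.

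Levels are given as TPM, which the authors scaled by gene length and library, and so can be compared between genes. Fold changes come from the read counts after TMM scaling, fitted by edgeR's quasi-likelihood test over all genes tested, and a gene was called where the p adjusted by Benjamini-Hochberg over all of them was below 0.05 and the change exceeded 2-fold. Reads counted per library ran from 14241172 to 17321677. The scales differ for the ACLF livers. From normal to empty livers the median gene moved by 0.441 on log2(TPM + 1) and by 0.045 after TMM scaling, so an excess of TPM over normal livers up to that size is shared by the median gene. From normal to UTOpiA livers it moved by 0.286 and 0.053, and from empty to UTOpiA livers by -0.165 and 0.001. A deficit of TPM in UTOpiA against empty livers up to that size is likewise shared. All 3 comparisons share groups, since the empty and the normal livers each enter 2 of them.

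Among the 9 members tested, empty against normal livers gave 1 member called higher (Slc11a2) and 1 called lower (Hfe), where 20.7% of all genes tested were called higher and 11.1% lower. Between the UTOpiA and the empty group 0 members were called in either direction by edgeR, as were 0 of all genes (0%), while DESeq2 called 1 member, Tfrc, and among all genes 53 higher and 71 lower. The 0 over all genes depended on single libraries, since edgeR called 26 higher and 22 lower without empty liver 2, and 32 higher and 17 lower without UTOpiA liver 2. At an unadjusted p under 0.05, 1 member was higher in the UTOpiA group (Tfrc), against 5.77% of all genes, and 2 were lower (Hamp and Ftl1), against 4.56%. Against normal livers, the UTOpiA group had 1 member called higher (Slc11a2) and 2 called lower (Hamp and Hfe), beside 18.2% and 6.81% of all genes. TPM of the groups did not overlap for 5 members between empty and normal livers (66.3% of all genes), for 3 between UTOpiA and empty livers (11%) and for 6 between UTOpiA and normal livers (52.4%). Each share of 9 members rests on few genes, and the set is therefore described gene by gene. Its median log2 difference was -0.09 between empty and normal livers, -0.02 between UTOpiA and empty livers and 0.19 between UTOpiA and normal livers, beside 0.045, 0.001 and 0.053 over all genes.

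**Figure D1:**
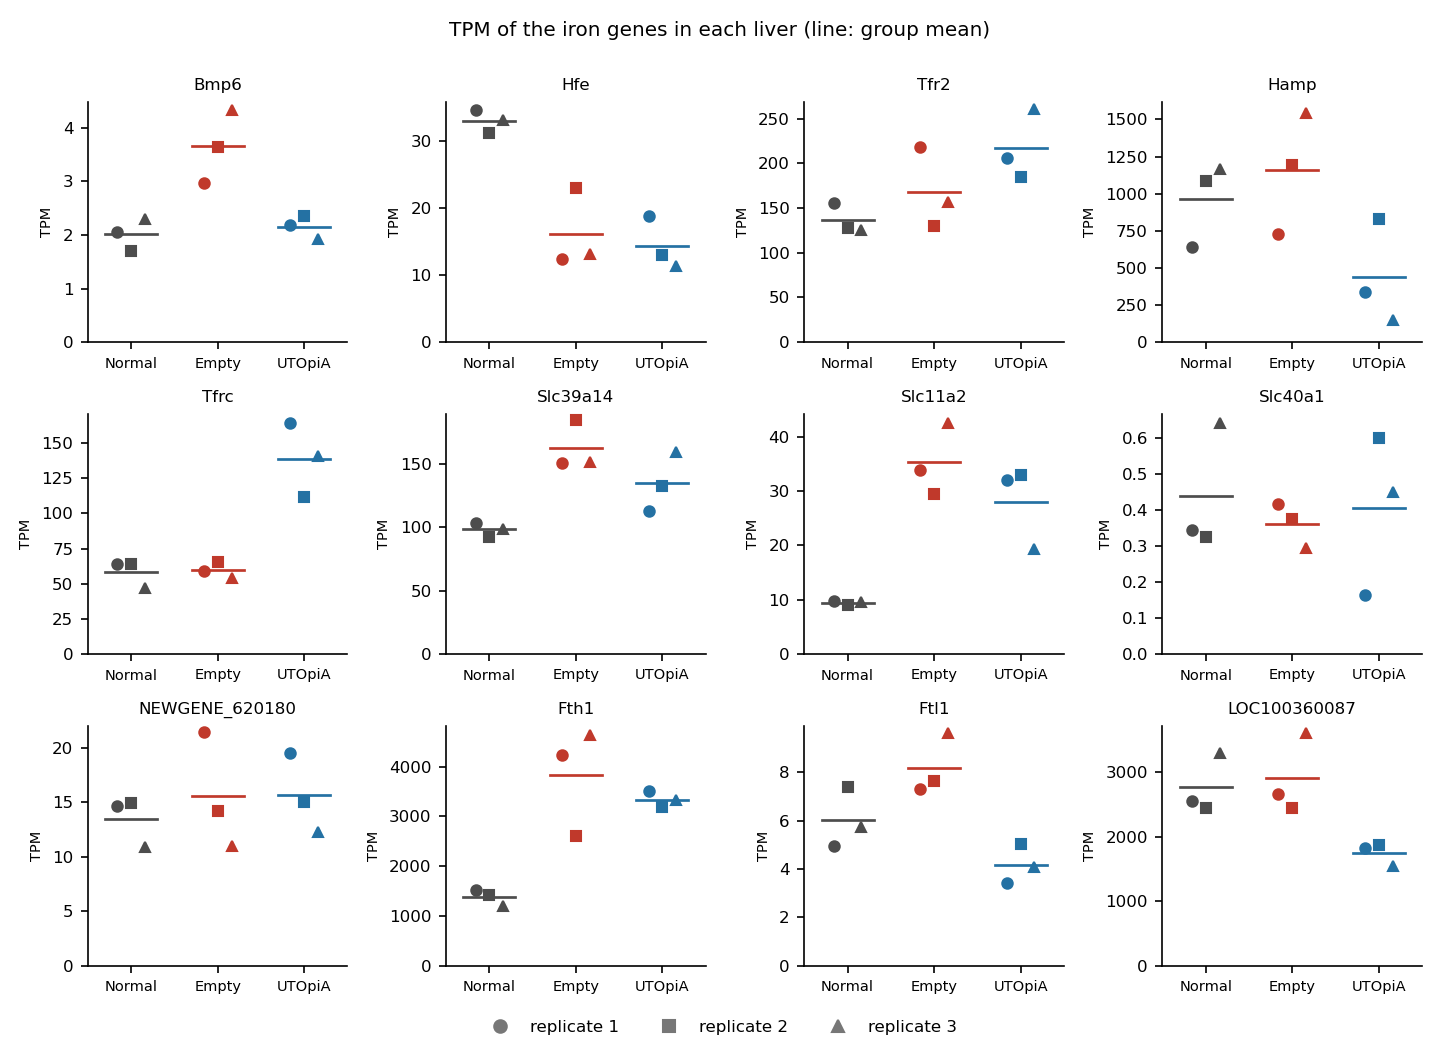
TPM of each iron gene (vertical axes, linear, from 0) in the 3 normal, 3 empty and 3 UTOpiA livers, with a point per liver whose shape gives the replicate and a line at the group mean. Tfrc lies at 112 to 165 TPM in UTOpiA livers and at 46.8 to 65.7 in all others, Hamp falls to 146 TPM in 1 UTOpiA liver, and Slc11a2 and Fth1 lie above normal in both ACLF groups; NEWGENE_620180 and LOC100360087 are rows described in the text.

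Bmp6, the ligand that reports iron stores to hepcidin, was the weakest of the tested members, with 22 to 62 counts per library. Its TPM was 2.05, 1.70 and 2.29 in normal livers 1 to 3, 2.97, 3.64 and 4.34 in empty livers, and 2.19, 2.35 and 1.93 in UTOpiA livers. All 3 empty livers lay above all other livers, and UTOpiA livers overlapped normal ones. After TMM scaling the empty and normal groups overlapped, with a log2 difference of 0.32 (SE 0.29, adjusted p = 0.375), whereas the UTOpiA livers still lay below the empty livers, by a log2 difference of -0.55 (SE 0.29, adjusted p = 0.544). Neither difference passed edgeR's test. The summed TPM of 6 endothelial markers, the cell type that makes Bmp6, spanned 85.21 to 94.95 in normal livers, 67.0 to 140 in empty livers and 70.3 to 100 in UTOpiA livers, so these ranges overlapped, and of the 6 markers Cdh5 was called higher and Kdr lower in empty against normal livers.

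Hfe, the partner of the transferrin receptors that takes part in iron sensing, fell in both ACLF groups. Normal livers had 34.6, 31.2 and 33.1 TPM, empty livers 12.3, 23.0 and 13.2, and UTOpiA livers 18.8, 13.1 and 11.4. No ACLF liver reached the lowest normal liver, on either scale. Relative to normal livers Hfe was 2.92-fold lower in the empty group (log2 -1.54, SE 0.27, adjusted p = 0.00156) and 2.85-fold lower in the UTOpiA group (log2 -1.51, SE 0.27, adjusted p = 0.00247, edgeR). The ACLF groups overlapped, with a log2 difference of 0.03 between them and a 95% interval from -0.56 to 0.63. Both calls held in all 20 alternative analyses, although those with no fold threshold and with ferritin rows summed by symbol could not lose them.

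The sum over 10 hepatocyte markers moved the same way as Hfe, from 157700 to 172400 TPM in normal livers to 32460 to 58120 in empty and 38700 to 62150 in UTOpiA livers, and 6 of the 10 markers were called lower and 1 higher in empty than in normal livers. Most of the fall in this sum came from Alb, with means of 119200, 20100 and 23270 TPM in normal, empty and UTOpiA livers. Mean TPM of Apob, Serpina1 and Pck1 was instead higher in empty than in normal livers. The part of hepatocyte content in the fall of Hfe was not tested. Summed TPM of cholangiocyte, stellate and neutrophil markers was higher in ACLF livers. For cholangiocytes it was 14.5 to 24.8 in normal, 304 to 610 in empty and 128 to 389 in UTOpiA livers. In the same order it was 103 to 113, 518 to 822 and 416 to 746 for stellate cells and fibroblasts. For neutrophils it was 2.26 to 5.92, 182 to 1092 and 173 to 501. All 6 cholangiocyte rows, 5 of 6 stellate rows and 4 of 4 neutrophil rows tested were called higher in each ACLF group (20.7% and 18.2% of all genes). The stellate row Lrat went the other way, at log2 -1.13 in empty and -0.53 in UTOpiA against normal livers, neither called. Of 8 neutrophil rows, 4 had enough reads to be tested. Col3a1 made up most of the stellate sum. In whole liver, fewer cells of a type and less RNA per cell cannot be told apart, and this holds for every gene here.

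Tfr2, the hepatocyte receptor that senses iron-loaded transferrin, stood well above Hfe in TPM. Its TPM was 156, 128 and 125 in normal livers, 218, 130 and 156 in empty livers and 206, 185 and 261 in UTOpiA livers. The order of the group means was normal, empty, UTOpiA, and only the outer pair did not overlap in TPM. After TMM scaling they overlapped too, and no difference passed the test. The largest was between the UTOpiA and the empty group, at log2 0.62 (SE 0.31, adjusted p = 0.53), and the sign of the difference between empty and normal livers depended on the scale, at -0.20 after TMM scaling and 0.28 on log2(TPM + 1).

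Hamp varied more between livers of a group than any other tested member. Normal livers had 643, 1086 and 1165 TPM and empty livers 729, 1195 and 1544. UTOpiA livers had 340, 827 and 146 TPM, a 5.65-fold range among 3 livers. The normal and empty groups overlapped throughout, whereas UTOpiA livers 1 and 3 lay below all 6 other livers and UTOpiA liver 2 lay within their range.

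Between empty and normal livers Hamp differed by a log2 of -0.28 (SE 0.46, adjusted p = 0.64), with a 95% interval from -1.31 to 0.76 that spans a more than 2-fold fall, and the sign turned to 0.24 on log2(TPM + 1). Hepcidin mRNA was thus not detectably different from normal in ACLF livers of the empty group. In the UTOpiA group it was 2.47-fold lower than in the empty group (log2 -1.31, SE 0.47), at an unadjusted p of 0.0205 that ranked 702 of 14089 genes and an adjusted p of 0.412, so this difference did not pass edgeR's test. The lowest adjusted p among the alternatives was 0.0693, without UTOpiA liver 2, where the log2 difference was -1.94. Against normal livers Hamp fell in the UTOpiA group, by 3.00-fold (log2 -1.58, SE 0.47, adjusted p = 0.0257, edgeR). The log2 difference stayed between -2.23 and -1.24 over 20 alternatives, but the call was lost without normal liver 2 (adjusted p = 0.0691), without normal liver 3 (0.076) and without UTOpiA liver 1 (0.0816), and by limma on TPM, within a range of 0.00245 to 0.119 over those alternatives. Hamp TPM overlapped between UTOpiA and normal livers, while TMM-scaled counts per library (CPM) of all 3 UTOpiA livers (36.6 to 139 CPM) lay below those of the normal livers (162 to 296 CPM). Of the 10 hepatocyte markers, 4 were called lower and 1 higher in UTOpiA against normal livers, with a median log2 difference of -0.82. Against the empty group 9 of 10 had a positive log2 difference, with a median of 0.50 and 0 called by edgeR (2 higher and 0 lower at an unadjusted p under 0.05).

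The genes whose pattern over the 9 livers was nearest to that of Hamp were Il17rb, Sgk1 and the row AC115277.1, with root mean square differences of 0.481, 0.481 and 0.548 between centred log2(TPM + 1) values. Il17rb, a subunit of the interleukin-25 receptor, had 10.3, 24.7 and 4.8 TPM in UTOpiA livers 1 to 3 and 18.5 to 33.2 TPM in the other livers. The UTOpiA livers had the same order in Il17rb as in Hamp. Sgk1, a serum- and glucocorticoid-regulated kinase, had 8.36, 14.2 and 6.23 TPM in UTOpiA livers and 17.1 to 30.9 TPM elsewhere. The row AC115277.1 carries the RefSeq identifier of a ferritin light chain copy, Ftl1l5, and had at most 28 counts. Likeness was read from the same 9 livers for 14088 genes and is a description only. For Bmp6 the nearest were Med7, Havcr2 and Anapc16, at 0.063, 0.067 and 0.079.

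The upstream genes of hepcidin were read from 2 lists. In the BMP and SMAD list, 17 rows were tested, and empty against normal livers gave 1 called higher and 2 lower (20.7% and 11.1% of all genes), with a median log2 difference of 0.14 against 0.045 over all genes. Id1, a direct SMAD target in hepatocytes, rose in the empty group by 2.32-fold (adjusted p = 0.00776, edgeR), from 2.87, 5.03 and 4.97 TPM in normal livers to 11.1, 12.2 and 20.2 TPM. It stood at 7.08, 9.39 and 5.89 TPM in UTOpiA livers, below every empty liver and above every normal liver, and its log2 difference to the empty group of -0.76 (SE 0.29, adjusted p = 0.433 and 0.0249 before adjustment) did not pass the test.

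Hemojuvelin (Hjv), the BMP co-receptor that raises hepcidin, and Tmprss6, the protease that lowers it, both fell in the empty group. Hjv fell by 1.77 on the log2 scale (SE 0.33, adjusted p = 0.00247) from 69.9 to 87.6 TPM in normal livers to 19.2 to 43.5 TPM, and Tmprss6 fell by 1.62 (SE 0.25, adjusted p = 9.19e-04, edgeR) from 277 to 286 TPM to 116 to 144 TPM. Against the empty group, Hjv was at log2 0.78 (adjusted p = 0.462 and 0.0399 before adjustment) in the UTOpiA group. Fgl1, a hepatocyte factor that binds BMP ligands and lowers hepcidin, had 1433, 1459 and 1016 TPM in empty livers and 1805, 1608 and 2397 TPM in UTOpiA livers, so these groups did not overlap, and its log2 difference of 0.82 (SE 0.33, adjusted p = 0.455 and 0.0347 before adjustment) did not pass. Erfe, the hormone by which red cell precursors lower hepcidin, had 0 counts in all normal livers and at most 11 counts elsewhere and was not tested.

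In the list of interleukin-6 and activin inputs, 5 of 9 genes rose in the empty group and 1 fell, beside 20.7% and 11.1% of all genes. Their median log2 difference was 1.71. Inhbb, the activin B subunit, had 0 counts in the normal livers and 319 to 488 counts in empty livers, which is on average at least 82.2-fold higher (66.1-fold in the lowest liver) than 3 counts per normal library would be. Il6 also had 0 counts in normal livers, but its level in the empty group came from 1 liver, with 1.15, 80.3 and 2.14 TPM in livers 1 to 3. Stat3 went from 26.2 to 33.3 TPM in normal livers to 142 to 171 in empty livers (log2 1.86, SE 0.33, adjusted p = 0.00173), Jak2 rose by 1.71 (SE 0.23, adjusted p = 4.16e-04), and Socs3, the feedback inhibitor, rose by 4.31 (SE 0.88, adjusted p = 0.00406, edgeR). Socs3 was at 58.1, 305 and 60.0 TPM in empty livers 1 to 3, highest in liver 2 as Il6 was. Cebpa, a hepatocyte transcription factor that also activates Hamp, was the gene that fell, by 1.69 (SE 0.32, adjusted p = 0.00226). The 5 genes rose in the same livers in which Hamp was not detectably different from normal.

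In UTOpiA livers Inhbb was at 2.79, 9.28 and 2.61 TPM, against 10.3, 16.99 and 13.5 TPM in empty livers. The log2 difference of Inhbb between the UTOpiA and the empty group was -1.36 (SE 0.42, adjusted p = 0.395 and 0.0136 before adjustment), that of Jak2 was -0.57 (SE 0.22, adjusted p = 0.439 and 0.0269 before adjustment), and neither passed the test. That of Stat3 was -0.16 (adjusted p = 0.903) and that of Cebpa was 0.72 (SE 0.31, adjusted p = 0.469 and 0.0446 before adjustment), so neither of these passed, and Inhbb, Socs3, Stat3 and Jak2 were called higher in UTOpiA than in normal livers. Between the UTOpiA and the empty group Socs3 had a log2 difference of -1.56 (SE 0.75, adjusted p = 0.518). That of Il6 was -5.72 (SE 1.88, adjusted p = 0.409 and 0.02 before adjustment), and neither passed edgeR's test. Il6 did not exceed 7 counts in any UTOpiA liver, and its level in the empty group came from 1 liver.

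**Figure D2:**
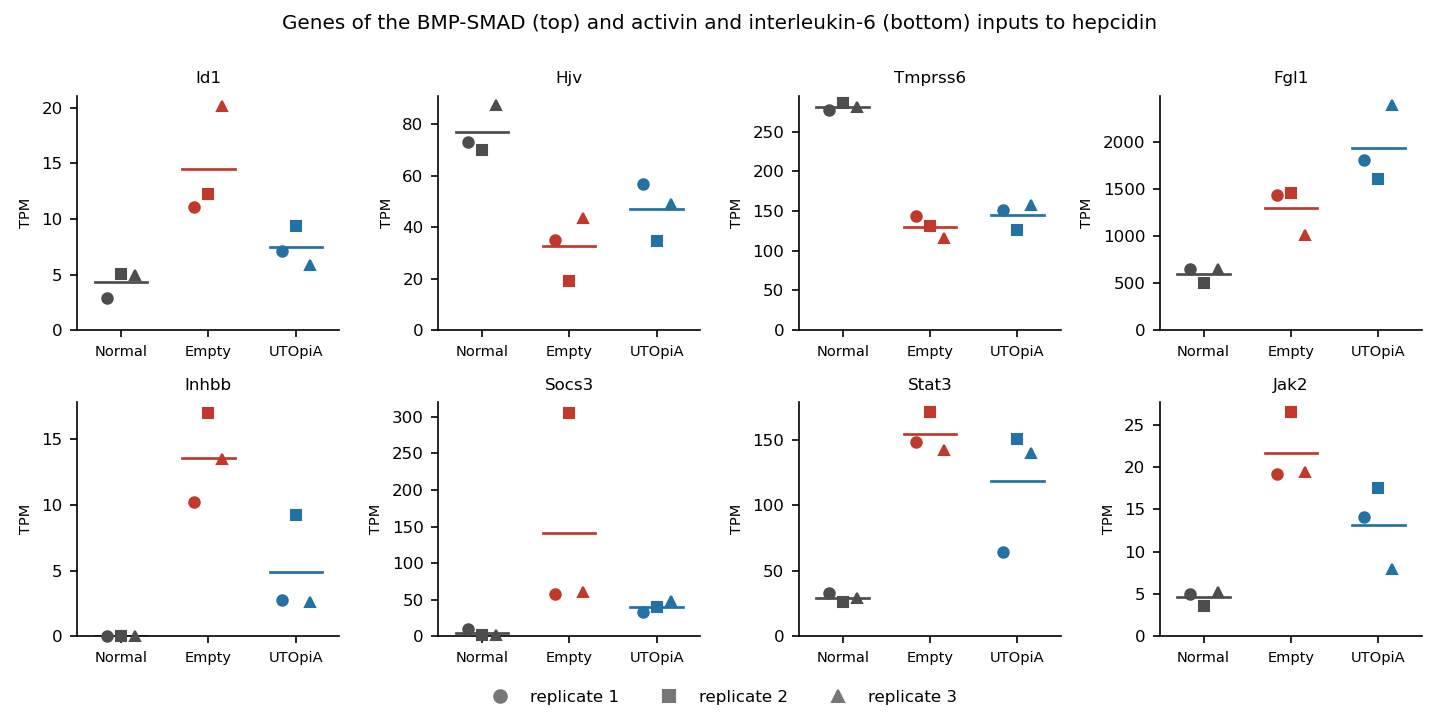
TPM (vertical axes, linear, from 0) of 4 genes of the BMP and SMAD input (top row) and 4 of the activin and interleukin-6 input (bottom row) in each liver, with shapes for replicates and lines for group means. Inhbb is at 0 TPM in all normal livers. Id1, Inhbb, Socs3 and Jak2 lie lower, and Fgl1 higher, in every UTOpiA liver than in any empty liver.

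Tfrc, the receptor through which cells take up transferrin-bound iron, had the smallest p of the members between the UTOpiA and the empty group. Its TPM was 63.8, 64.3 and 46.8 in normal livers and 58.9, 65.7 and 54.1 in empty livers. In UTOpiA livers it was 165, 112 and 141, so each of them lay above all 6 other livers, on both scales. Normal and empty livers overlapped in TPM but not after TMM scaling, where the empty livers lay lower (117 to 155 against 158 to 214 CPM), and their difference had a log2 of -0.48 (SE 0.26, adjusted p = 0.15), with a sign that turned to 0.04 on log2(TPM + 1).

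Between the UTOpiA and the empty group Tfrc was 2.74-fold higher (log2 1.46, SE 0.26, 95% interval 0.87 to 2.05), and its unadjusted p of 2.88e-04 ranked 22 of 14089 genes. The adjusted p was 0.178, close to the lowest of any gene in this comparison, 0.17, so the difference was not called by edgeR. DESeq2 called it (adjusted p = 7.46e-05), as did edgeR without UTOpiA liver 2 (adjusted p = 0.0376), where 32 genes were called higher in all, and over 20 alternatives the adjusted p ran from 7.46e-05 to 0.61. The exact permutation test on TPM gave p = 0.1, the smallest it can give for 3 livers against 3. Against normal livers Tfrc was 1.97-fold higher in the UTOpiA group (log2 0.97, SE 0.26, adjusted p = 0.0156), past the p threshold and just under the fold threshold.

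Red cell precursors and dividing cells carry much transferrin receptor, so their markers are given beside it. The summed TPM of 9 erythroid marker rows was 109 to 313 in normal livers, 2535 to 4056 in empty livers and 844 to 1413 in UTOpiA livers, and the UTOpiA livers lay below the empty livers. Globin rows made up most of it (Hba-a1 at 575, 351 and 565 TPM in UTOpiA livers and 952, 1995 and 1481 in empty livers). Between UTOpiA and empty livers 3 of 7 rows tested (Epb42, Ahsp and Slc4a1) had a positive and 4 a negative log2 difference, with 0 called. Against normal livers 6 of 7 were called higher in each ACLF group (20.7% and 18.2% of all genes), and Slc4a1 was called lower in the empty group. Of the precursor genes, Gata1 had 0 counts in every liver, while Klf1 had 2 to 15 counts in empty and 4 to 9 in UTOpiA livers. Ahsp had 0 counts in normal, 18 to 42 in empty and 25 to 45 in UTOpiA livers. Markers of proliferation summed to 75.3 to 126 TPM in empty livers and 57.1 to 110 in UTOpiA livers, so these ranges overlapped, and 6 of 8 rows had a positive log2 difference between these groups, with a median of 0.28 and 0 called. The part of either cell population in the Tfrc level was not tested. Nearest to Tfrc in pattern were a row named MGC94199 (at most 1.36 TPM), Rnd2 and Them6, with root mean square differences of 0.212, 0.258 and 0.269. Rnd2, a small GTPase, was at 31.1 to 56.4 TPM in UTOpiA livers and 18.9 to 29.9 elsewhere, and Them6 at 31.4 to 57.7 against 15.1 to 24.5 TPM.

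**Figure D3:**
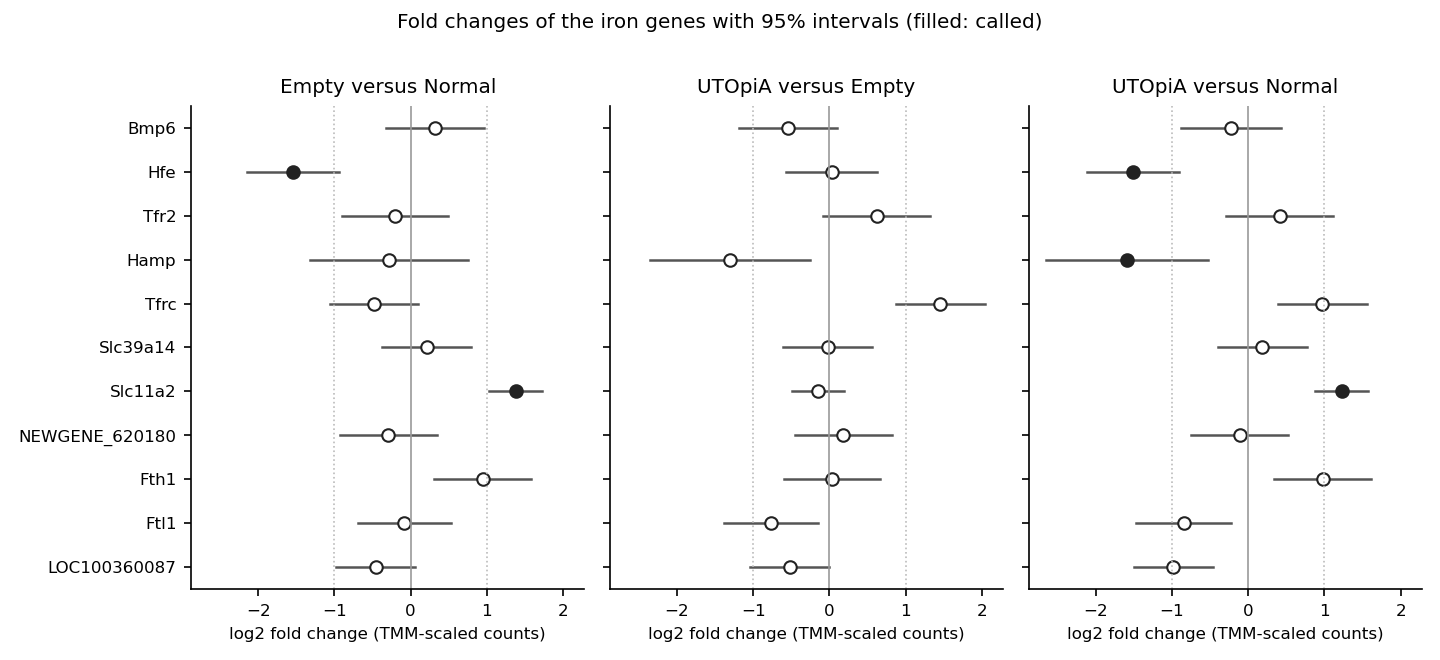
Log2 fold change (horizontal axes, TMM-scaled counts) of each tested iron gene and of the rows NEWGENE_620180 and LOC100360087 in the 3 comparisons, with lines for 95% intervals, filled points for called genes and dotted lines at a 2-fold change. Hfe and Slc11a2 are called in both comparisons with normal livers, Hamp only in UTOpiA against normal, and no point is filled between UTOpiA and empty livers, where Tfrc (1.46) and Hamp (-1.31) lie farthest from 0.

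Slc11a2 (DMT1), which carries iron out of endosomes and across membranes, rose in both ACLF groups. Normal livers had 9.74, 8.96 and 9.55 TPM, empty livers 33.8, 29.6 and 42.5, and UTOpiA livers 32.1, 33.0 and 19.3. Every ACLF liver lay above every normal liver. The rise was 2.6-fold in the empty group (log2 1.38, SE 0.15, adjusted p = 1.96e-04) and 2.34-fold in the UTOpiA group (log2 1.23, SE 0.15, adjusted p = 4.93e-04, edgeR). Both calls held in all 20 alternatives, with the same limit as for Hfe. The difference between the ACLF groups was -0.15 (95% interval -0.49 to 0.19), an interval that leaves out a 2-fold change. Slc11a2 had the smallest p of the members against normal livers.

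Slc39a14 (ZIP14), which takes up iron not bound to transferrin and is known to respond to interleukin-6, was among the more highly expressed transporters. It had 103, 92.5 and 98.7 TPM in normal livers, 151, 184 and 152 in empty livers and 113, 132 and 160 in UTOpiA livers. In TPM every ACLF liver lay above every normal liver, but after TMM scaling the groups overlapped. The log2 differences were 0.21 (SE 0.26, adjusted p = 0.531) for empty and 0.19 (SE 0.26, adjusted p = 0.598) for UTOpiA against normal livers, and -0.02 between the ACLF groups. Slc39a8 (ZIP8), the related transporter, fell in the empty group by 1.64 (SE 0.30, adjusted p = 0.00226).

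The row with the symbol Slc40a1 (ferroportin) had only 2 to 8 counts per library and was not tested. A neighbouring row on chromosome 9, NEWGENE_620180, carries the Entrez identifier 170840, which RefSeq assigns to Slc40a1. That row had 305 to 693 counts, with 14.6, 14.9 and 10.9 TPM in normal livers, 21.5, 14.2 and 10.98 in empty livers and 19.6, 15.1 and 12.3 in UTOpiA livers. The 3 groups overlapped. Its log2 differences were -0.29 (SE 0.28, adjusted p = 0.421) for empty against normal, 0.18 (SE 0.28, adjusted p = 0.86) for UTOpiA against empty and -0.11 (SE 0.28, adjusted p = 0.786) for UTOpiA against normal livers. The 95% interval of the middle difference, -0.45 to 0.82, leaves out a 2-fold change.

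Fth1, the ferritin heavy chain that oxidises iron for storage, had the highest TPM of the rows that carry a member's symbol. Its TPM was 1522, 1421 and 1209 in normal livers, 4238, 2606 and 4646 in empty livers and 3507, 3181 and 3322 in UTOpiA livers. All 6 ACLF livers lay above the normal livers on both scales, and in TPM the UTOpiA livers lay within the range of the empty ones. The difference had an adjusted p of 0.0212 for the empty group (log2 0.95, SE 0.28) and 0.0227 for the UTOpiA group (log2 0.98, SE 0.29), but at 1.93-fold and 1.97-fold it stayed under the fold threshold and was not called. On log2(TPM + 1) it was called in both. The reads of Fth1 lie inside Best1, a gene on the opposite strand that overlaps it, and the Best1 row held 99.0% to 99.6% as many counts as Fth1 in each library, so reads of these genes were not told apart in the counts.

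The symbol Ftl1 (ferritin light chain) stood on a row with only 26 to 82 counts per library, at 4.95, 7.38 and 5.75 TPM in normal livers, 7.29, 7.65 and 9.61 in empty livers and 3.41, 5.01 and 4.06 in UTOpiA livers. That row is 908 bases long, on chromosome 5 between Cd52 and Ubxn11, where RefSeq places LOC100360087, and the row named LOC100360087 lies between Gys1 and Bax on chromosome 1, where RefSeq places Ftl1. By identifier the reading differs. The row Ftl1 carries the Entrez identifier 29292, which RefSeq assigns to Ftl1, and the row LOC100360087 carries none. Position and identifier thus conflict. Both rows are therefore given, and the row LOC100360087 was added after its values were seen. It held 7837 to 18722 counts, with 2554, 2444 and 3291 TPM in normal livers, 2658, 2447 and 3608 in empty livers and 1825, 1863 and 1540 in UTOpiA livers.

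In both rows the highest UTOpiA liver stayed under the lowest empty liver. For the row Ftl1 the log2 difference was -0.76 (SE 0.28, adjusted p = 0.415 and 0.0207 before adjustment), and for LOC100360087 it was -0.52 (SE 0.23, adjusted p = 0.478 and 0.0469 before adjustment), so neither passed edgeR's test. Against normal livers the UTOpiA group was lower in both, with log2 -0.85 (SE 0.28, adjusted p = 0.0367) and -0.98 (SE 0.23, adjusted p = 0.00894), past the p threshold and under the fold threshold. The differences between empty and normal livers did not pass the test in either row, at log2 -0.09 (adjusted p = 0.816) and -0.46 (adjusted p = 0.124). Ferritin genes have many near-identical processed copies, so reads of both rows may be shared with others; the further rows that RefSeq names as Ftl1 copies by identifier had at most 28 counts in any library.

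Heavy and light chain levels were compared within a liver, which needs no scaling between livers. The ratio of Fth1 to LOC100360087 TPM was 0.596, 0.581 and 0.367 in normal livers, 1.59, 1.06 and 1.29 in empty livers and 1.92, 1.71 and 2.16 in UTOpiA livers. The groups did not overlap in any of the 3 comparisons. Mean log2 ratios differed by 1.37 between empty and normal livers, by 0.57 between UTOpiA and empty livers and by 1.93 between UTOpiA and normal livers, each with p = 0.1 by the exact permutation test, the smallest that 3 livers against 3 allow. With the row Ftl1 as denominator the ratios ran from 192 to 307, from 341 to 581 and from 634 to 1029, with differences of 0.98, 0.83 and 1.81 and the same p. The order normal, empty, UTOpiA thus held with either row, and the values of both rest on the Fth1 reads that were also counted for Best1.

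**Figure D4:**
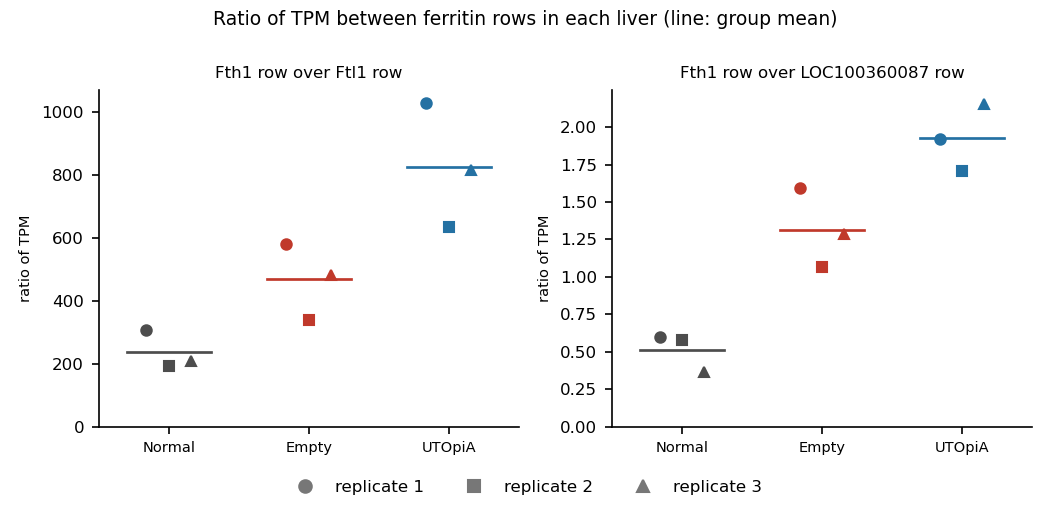
Ratio of Fth1 TPM to the TPM of the row Ftl1 (left) and of the row LOC100360087 (right) in each liver (vertical axes, linear, from 0), with shapes for replicates and lines for group means. In both panels all UTOpiA livers lie above all empty livers and these above all normal livers.

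The wider iron pathway was read from 7 lists, the 2 above included, with 76 rows tested. Empty against normal livers gave 18 rows called higher and 18 called lower, or 23.7% each, beside 20.7% and 11.1% of all genes tested. Limma on log2(TPM + 1) gave 22 higher and 8 lower, where 24% of all genes were called higher and 5.18% lower on that scale, and all 36 rows called by edgeR had the same sign on both. Between the UTOpiA and the empty group edgeR called 0 rows, with 7 higher and 7 lower at an unadjusted p under 0.05, beside 5.77% and 4.56% of all genes. DESeq2 called 1 higher (Lcn2) and 1 lower (Steap4), and limma called 0.

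In the list of plasma iron and haem binding, transcripts rose in the empty group for 4 of 6 genes tested, with 0 called lower, against 20.7% and 11.1% of all genes. Haemopexin (Hpx), which binds free haem, rose 4.26-fold (adjusted p = 0.0033) and haptoglobin (Hp), which binds haemoglobin, 2.53-fold (adjusted p = 0.00864, edgeR), and Heph, a membrane ferroxidase, rose 7.72-fold (adjusted p = 0.00361). Lcn2, which binds siderophores and so withholds iron from bacteria, was at 2.95 to 5.03 TPM in normal livers, at 291, 2523 and 417 TPM in empty livers and at 6310, 5694 and 5359 TPM in UTOpiA livers. The 3 groups did not overlap. Its log2 difference between UTOpiA and empty livers was 2.63 (SE 0.75, adjusted p = 0.349 by edgeR and 0.00923 by DESeq2). Transferrin (Tf), the plasma iron carrier, was at 20720 to 24560 TPM in normal and 10770 to 25870 TPM in empty livers, which overlapped, and was not called (adjusted p = 0.0896, edgeR).

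Genes of iron uptake and reduction rose for 5 of 9 rows in the empty group and fell for 2, against all-gene shares of 20.7% and 11.1%. Steap4, a metalloreductase, rose 8.59-fold (adjusted p = 2.73e-04), from 25.4 to 25.9 TPM in normal livers to 324, 407 and 208 TPM, and stood at 57.0, 138 and 104 TPM in UTOpiA livers. All UTOpiA livers lay between the other groups, and the log2 difference to the empty group was -1.46 (SE 0.35, adjusted p = 0.27 by edgeR and 0.0064 by DESeq2). Steap2 rose 9.21-fold (adjusted p = 0.00139), Scara5, a ferritin receptor, rose from at most 5 counts to 54 to 342 counts (adjusted p = 0.00193), and Steap1 was on average at least 7.09-fold higher than 3 counts per normal library would be, although 1 empty liver had only 7 counts. Cd163, the haemoglobin scavenger receptor of macrophages, rose 2.98-fold (adjusted p = 0.0131), beside a summed TPM of 7 macrophage markers of 283 to 329 in normal and 394 to 764 in empty livers. Whether more macrophages carried the rise was not tested. Steap3, the endosomal ferrireductase of the transferrin cycle, fell by 1.01 (SE 0.33, adjusted p = 0.0301, edgeR).

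Of 18 rows for haem synthesis, transport and breakdown, 3 were called higher and 7 lower in the empty group, where 20.7% and 11.1% of all genes were. Hmox1, the haem oxygenase that releases iron, rose 10.6-fold (adjusted p = 0.00113), from 20.5 to 25.9 TPM in normal livers to 304 to 406 TPM, and stood at 170, 152 and 447 TPM in UTOpiA livers, which overlapped the empty livers. Slc48a1, which exports haem from lysosomes, rose 2.05-fold (adjusted p = 0.00426). Alas2, the red cell form of the first enzyme of haem synthesis and also 1 of the erythroid markers, rose 13.2-fold (adjusted p = 6.7e-04), while Alas1, the liver form, fell by 1.42 (SE 0.34, adjusted p = 0.00789). The enzymes Alad and Ppox fell by 1.77 (SE 0.33, adjusted p = 0.00241) and 1.92 (SE 0.17, adjusted p = 7.39e-05), and the haem and folate carrier Slc46a1 fell by 2.01 (SE 0.29, adjusted p = 6.7e-04, edgeR). The median of the list was -0.92 after TMM scaling and -0.39 on log2(TPM + 1).

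Iron regulatory protein 1 (Aco1), which binds Tfrc and ferritin mRNA, fell in the empty group by 1.34 (SE 0.22, adjusted p = 0.00113), as the only called gene of 6 for intracellular iron handling (11.1% of all genes were called lower), and had 58.4 to 73.9 TPM in empty and 58.8 to 81.5 TPM in UTOpiA livers. Of 11 rows for mitochondrial iron and iron-sulfur assembly, 5 fell in the empty group and 0 rose, beside 11.1% of all genes called lower and 20.7% higher. Among them were the mitochondrial iron importer Slc25a37, which fell by 1.40 (SE 0.26, adjusted p = 0.00211), the assembly factors Glrx5 by 1.46 (SE 0.25, adjusted p = 0.00152) and Hspa9 by 1.42 (SE 0.19, adjusted p = 4.62e-04), and the ferredoxin Fdx1 by 1.06 (SE 0.16, adjusted p = 6.83e-04, edgeR). The median of this list was -0.77 after TMM scaling but 0.085 on log2(TPM + 1). Fdx1 had 51.0 to 56.8 TPM in empty livers and 62.0 to 102 TPM in UTOpiA livers, without overlap, and its log2 difference of 0.79 (SE 0.16, adjusted p = 0.194 and 5.27e-04 before adjustment) did not pass.

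**Figure D5:**
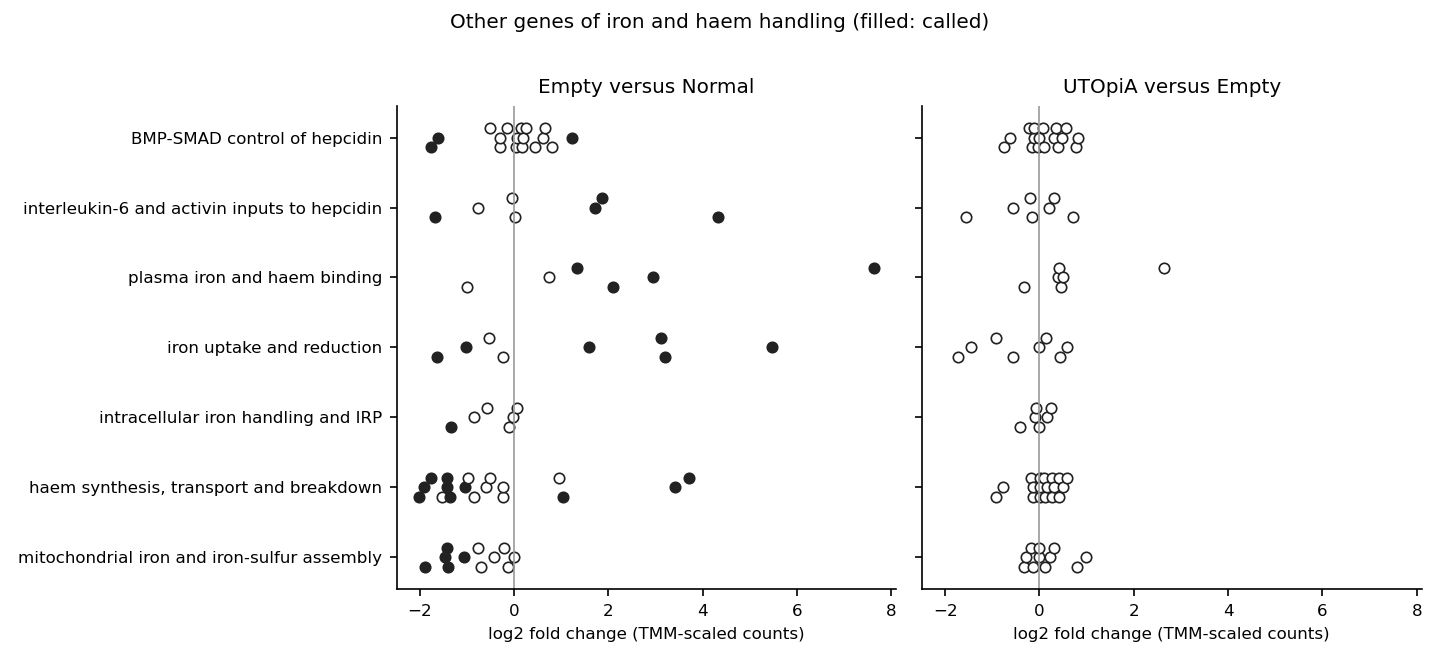
Log2 fold change (horizontal axes, TMM-scaled counts) of each tested row of the 7 lists of iron and haem genes (vertical axis), for empty against normal livers (left) and UTOpiA against empty livers (right), with filled points for called rows. Il6, Inhbb and Steap1, with 3 counts or fewer in every normal library, are left out; the left panel holds filled points on both sides of 0, the right panel none.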

How the data were processed

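Libraries were grouped by their labels. The authors deposited raw read counts per gene and TPM for 32883 rat genes. Their methods name Cutadapt 1.9.1, HISAT2 2.0.1, featureCounts 2.6.0, an MGIEasy kit and the mouse build GRCm38. The submitters' processing notes and labels name Trimmomatic, rn6 and NEBNext kits. The strand setting is not given in the sources used here.

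Counts were filtered by filterByExpr, TMM-scaled and fitted with edgeR 4.0.16 in R 4.3.3, with 1 mean per group over all 9 libraries and two-sided quasi-likelihood tests. Between livers of a group, log2 CPM had a median SD of 0.19 to 0.30. TMM factors ran from 0.80 to 1.32. Single values were compared by two-sided exact permutation tests. Alternatives used DESeq2 1.42.0, limma 3.58.1 on log2(TPM + 1) or log2(TPM + 0.1), other filters and scalings, a replicate block and each library left out. The tests were tried on simulated counts.

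The members and lists were chosen with earlier results of these data known. All members are named, and of each list among genes called between empty and normal livers, up to 4 per direction with the largest fold changes. Jak2, Fgl1, Cd163, Fdx1, Tf, Erfe and Slc40a1's and Ftl1's alternative rows were named after their values were seen. For 9 list symbols no row carries the symbol. One gene that this rule would name is not reported here.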

Additional observations from a re-analysis of the deposited data

How the results depend on the processing

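Every alternative listed was run, and ferritin rows summed by symbol were the member rows themselves. The calls of Hfe and Slc11a2 against normal livers held in all 20, of which that setting and the one with no fold threshold could not lose a call. Fth1 was called in the empty group, giving 2 members called higher, with no fold threshold, with at least 10 counts in every library and by limma on TPM under each pseudocount and filter, and leaving out single libraries gave 1 to 2 (2 without empty replicate 2 or normal replicate 1). Against normal livers the UTOpiA group had 3 members called higher under those same settings, with Fth1 and Tfrc added, and 1 to 3 with libraries left out (2 without normal replicate 1 or 2, 3 without UTOpiA replicate 2). Members called lower there were 3 with no fold threshold (Ftl1 added), 1 by limma on TPM, and 1 to 2 with libraries left out, with Hamp lost. Between UTOpiA and empty livers 1 member, Tfrc, was called higher by DESeq2, and 0 to 1 with libraries left out. Over all genes, empty against normal livers gave 26.9% called higher with no fold threshold, 14.5% with at least 10 counts, 16% to 27.5% by limma and 18.3% to 20.6% with libraries left out. In the same order 21.5%, 10.4%, 3.42% to 5.62% and 9.35% to 12.3% were called lower. For UTOpiA against normal livers the shares were 23.3%, 12.2%, 9.88% to 20.1% and 14.6% to 18.8% called higher, and 16.2%, 6.18%, 2.33% to 3.94% and 5.06% to 7.63% called lower.

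Signs turned for small differences. Between empty and normal livers limma on TPM gave 0.242 for Hamp, 0.041 to 0.042 for Tfrc, 0.276 to 0.277 for Tfr2 and 0.392 to 0.443 for Ftl1, where Ftl1 was 0.019 with at least 10 counts and -0.21 to 0.066 with libraries left out. Between UTOpiA and empty livers limma gave -0.133 to -0.14 for Hfe and -0.156 for Fth1, and leaving out libraries gave -0.187 to 0.391 for Hfe, -0.362 to 0.123 for Slc39a14 and -0.171 to 0.185 for Fth1. Between UTOpiA and normal livers limma gave 0.069 to 0.099 for Bmp6, and leaving out libraries gave -0.157 to 0.331 for Slc39a14. The cause was not tested, beyond the shift between the TMM and TPM scales given above.

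Replicate numbers did not pair the livers, since same-numbered libraries of different groups correlated by -0.183 to 0.064 in their deviations from group means. With the replicate block the members called were 1 higher and 1 lower, 0 and 0, and 1 higher and 2 lower in the 3 comparisons, and the block changed no call of a member. Over all genes it gave 2746 higher and 1532 lower, 0 and 0, and 2344 higher and 897 lower. The rows Bmp6, Slc40a1 and Ftl1 had at most 62, 8 and 82 counts per library, while Hamp, with more reads, had the widest standard errors of the tested members (0.46 to 0.47).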
